A study of Mus musculus with 2 samples.

Results

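The genes described here move ions, bicarbonate and water across the wall of the colon. They are 10 genes chosen by symbol among the 31053 listed in the matrices: the carbonic anhydrases Car1 and Car4, the water channels Aqp8 and Aqp4, the exchangers Slc26a3 and Slc9a3, the sodium channel subunits Scnn1a, Scnn1b and Scnn1g, and the chloride channel Cftr. All 10 were found. Single-cell RNA was sequenced with the 10x Genomics method from crypt cells isolated from the colon of C57BL/6 mice aged 4 weeks. The Mettl14_cKO library came from M14(f/f);Villin-Cre mice, which carry floxed Mettl14 alleles and Villin-Cre, a recombinase driven in gut epithelial cells. The control library came from M14(f/f) mice, which carry the same floxed alleles without the Cre transgene. Each library pooled 3 mice, and each genotype had 1 library. No test between genotypes and no error between animals can be had, and every interval below is a 95% interval that covers counting error only.

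Car1 in the cytosol and Car4 on the outer face of the apical membrane turn carbon dioxide and water into bicarbonate and protons. Slc9a3 exchanges luminal sodium for those protons and Slc26a3 exchanges luminal chloride for the bicarbonate, which together take up salt, and water follows. Scnn1a, Scnn1b and Scnn1g are the alpha, beta and gamma subunits of ENaC, the aldosterone-regulated channel that takes up sodium in the distal colon. Cftr, a channel opened by cyclic AMP, secretes chloride and bicarbonate, best known from crypt cells. Aqp8 is an apical and Aqp4 a basolateral water channel of colonic epithelium.

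The Mettl14_cKO library held 89729527 UMIs (counted RNA molecules) in 9225 barcodes and the control library 111239295 UMIs in 10181 barcodes. They shared 33 barcode sequences. Filtering left 7072 Mettl14_cKO and 9077 control cells, with 6049 and 8704 in epithelial-like clusters. Cells were clustered without the 10 genes and without 69 other transport genes, so that the classes do not rest on them. Colonocyte-like cells, the absorptive class, numbered 400 in the Mettl14_cKO and 1826 in the control library, or 6.61% and 21.0% of epithelial-like cells. All 21 colonocyte markers had UMIs in both libraries, summing to 16323 and 22938 CPM (the UMIs of a gene relative to all UMIs of its class), but single markers differed widely, with Sult1a1 at 18.6 and 415 CPM and Ly6g at 1207 and 4.41 CPM. Goblet-like cells numbered 2652 and 3453, cycling-like cells 1134 and 1972, and T/NK-like cells, which should lack these genes, 393 and 358. Colonocyte-like, goblet-like and cycling-like cells each lay mostly in different clusters in the 2 libraries. T/NK-like cells shared cluster 13 in part, with 176 Mettl14_cKO and 354 control cells. The sex of the mice also differed, with Xist at 338 CPM in the Mettl14_cKO and 0.0629 CPM in the control library, and its effect and that of the genotype cannot be told apart. Mettl14 itself had 5.06 and 4.76 CPM in epithelial-like cells (ratio 1.06, 0.931 to 1.21), which checks neither the deletion nor the labels, since no source used here names the floxed exons.

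In colonocyte-like cells the 10 genes did not move as a block. Of 9 genes with at least 30 UMIs in both libraries together, 4 were at least 2-fold lower in the Mettl14_cKO library (Car1, Aqp4, Slc26a3 and Cftr), 3 were at least 2-fold higher (Car4, Scnn1a and Scnn1b) and 2 lay between (Aqp8 and Slc9a3). Of all 11023 genes measured there, 8.04% were lower and 10.0% were higher by the same rule, which takes log2 of the ratio of CPM plus 1. The median log2 ratio was 0.34 over the 9 genes and -0.07 over all genes. Most of these cells lay in cluster 18 in the Mettl14_cKO library and in clusters 6, 7 and 25 in the control.

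The carbonic anhydrases differed in direction. Car1, the cytosolic enzyme, had 18769.8 CPM in Mettl14_cKO and 59011 CPM in control colonocyte-like cells, 3.14-fold lower (3.12 to 3.16). Car4, the membrane-anchored enzyme, had 525 CPM in Mettl14_cKO and 151 CPM in control colonocyte-like cells, 3.48-fold higher (3.32 to 3.66). In T/NK-like cells, a check on free RNA, Car1 had 80.1 and 3097 CPM and Car4 5.01 and 9.33 CPM, far under the colonocyte-like level of the same library.

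The apical exchangers also parted. Slc26a3, the chloride-bicarbonate exchanger, had 70.5 CPM in Mettl14_cKO and 175 CPM in control colonocyte-like cells, 2.48-fold lower (2.23 to 2.76). Slc9a3, the sodium-proton exchanger, had 54.6 and 43.1 CPM, a ratio of 1.27 (1.11 to 1.44). Slc26a3 was therefore past the 2-fold line and Slc9a3 was not. Over the whole class the water channels showed the same split, which a narrower choice of clusters, given below, did not keep. Aqp4, on the basolateral side, had 167 CPM in Mettl14_cKO and 360.0 CPM in control colonocyte-like cells, 2.15-fold lower (2.01 to 2.31). Aqp8, on the apical side, had 314 and 216 CPM, a ratio of 1.45 (1.37 to 1.53).

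The alpha subunit of ENaC had the highest ratio of the 9 genes by the log2 rule. Scnn1a had 56.1 CPM in Mettl14_cKO and 7.68 CPM in control colonocyte-like cells, from 305 and 200 UMIs, 7.31-fold higher (6.10 to 8.78). Its partners were scarce in these cells. Scnn1b had 19 and 12 UMIs, or 3.50 and 0.461 CPM, 7.59-fold higher (3.50 to 17.1), but T/NK-like cells had 3.00 and 1.33 CPM from 3 and 1 UMIs. Its colonocyte-like level is thus read as background, although it counts among the 3 higher genes. Scnn1g had 4 and 1 UMIs, too few to compare. Cftr, the secretory channel, had 14.5 CPM in Mettl14_cKO and 33.4 CPM in control colonocyte-like cells, 2.30-fold lower (1.82 to 2.93).

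**Figure D1:**
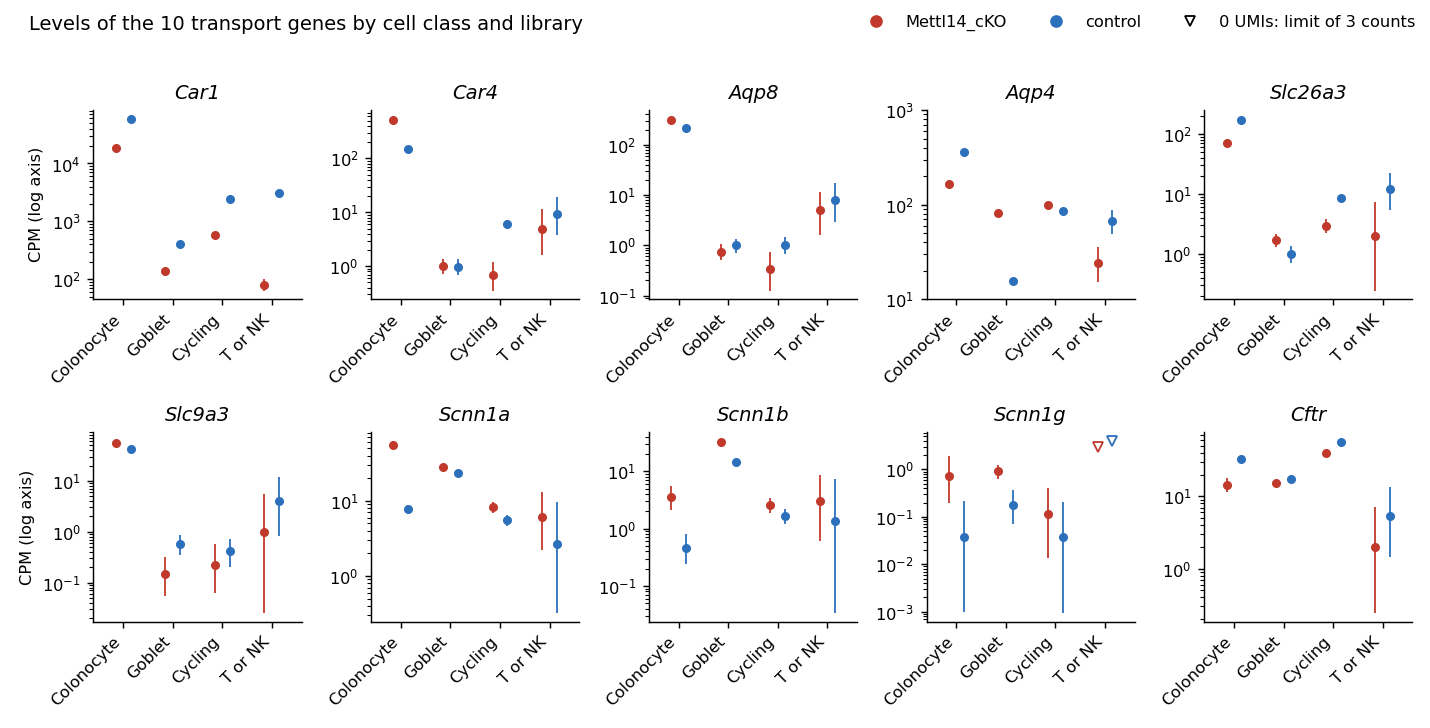
Level of each of the 10 genes in 4 cell classes, as CPM on log axes that differ between panels, with Mettl14_cKO points left of control points and 95% Poisson intervals for counting error. Car4 (525 and 151 CPM) and Car1 (18769.8 and 59011 CPM) lie apart in opposite directions in colonocyte-like cells, and the T/NK-like points show the level in cells that should lack the genes.

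Several measures of the cells moved with these values. Malat1, a nuclear RNA, had 14722 CPM in Mettl14_cKO and 6564 CPM in control colonocyte-like cells, and the median mitochondrial share was 6.51% and 4.70%. The 11 myeloid markers summed to 317 and 2.99 CPM there, with 2 and 6 of them at 0. The part of these in the results was not tested.

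With every cell thinned to 1700 UMIs, the shares of colonocyte-like cells with a UMI given here lay in the same direction as the CPM. Shallower cells were left out, 18 and 74 colonocyte-like, 223 and 264 goblet-like, 97 and 192 cycling-like and 144 and 188 T/NK-like cells. Scnn1a was seen in 10.5% of 382 Mettl14_cKO cells (7.59 to 14) and 1.60% of 1752 control cells (1.06 to 2.30), and unthinned in 43.8% and 8.60%. The thinned share of T/NK-like cells with a Scnn1a UMI was 0.402% and 0.588%. Car4 was seen in 29.6% and 21.5% of thinned cells, a smaller gap than that of its CPM. Slc26a3 was seen in 12.0% and 25.2%, Aqp4 in 14.9% and 31.1%, Aqp8 in 24.3% and 12.9%, and Slc9a3 in 10.7% and 9.25%. Car1 was seen in 88.0% (84.3 to 91.0) of Mettl14_cKO and 98.2% (97.5 to 98.8) of control cells, so most cells of both libraries held it. Median depths before thinning were 10404.5 and 11435.5 UMIs.

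The control colonocyte-like cells were themselves of different kinds. Cluster 7, with 853 control cells, held Krt20 and Tmigd1 among its leading genes and had 90619 CPM of Car1, 501 of Aqp8, 315 of Car4, 246 of Slc26a3 and 82.5 of Slc9a3. Cluster 6, with 879 control cells, was led by Reg3b, Reg3g and Hao2, had no colonocyte marker among its 10 leading genes, and had 440.3 CPM of Aqp4 and 51.1 of Cftr but only 2.87 of Aqp8 and 15.1 of Car4. Cluster 25, with 89 control cells, was high in Hoxb13 (447 CPM), a homeobox gene of the distal colon, and had 661 CPM of Aqp4, 316 of Slc26a3 and 61.6 of Scnn1a, beside 7228 of Car1. Aqp8 and Car4 thus marked cluster 7 and cluster 25 but not cluster 6, and Scnn1a marked cluster 25. In the Mettl14_cKO library nearly all colonocyte-like cells, 360, were in cluster 18, which was led by Sprr1a and the acute-phase gene Saa1. It had 16711 CPM of Car1, 582 of Car4, 346 of Aqp8, 157 of Aqp4, 64.6 of Slc26a3, 51.4 of Slc9a3 and 63.1 of Scnn1a, with Hoxb13 at 103 CPM. Its Scnn1a level was close to that of control cluster 25 (61.6 CPM) and far above that of cluster 7 (4.86 CPM).

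Cells within a cluster spread widely. Car1 per 10000 UMIs had a median of 51.1 in Mettl14_cKO cluster 18, with 1.44 at the 10th and 417 at the 90th percentile of cells. In control cluster 7 the median was 784 and the same percentiles were 199 and 1355. The 90th percentile of cluster 18 thus lay between the 10th percentile and the median of cluster 7. Car4 had a median of 0 per 10000 UMIs in cluster 18, against 1.68 in cluster 7. Over the whole class 40.0% of Mettl14_cKO and 39.2% of control cells had a Car4 UMI before thinning, and the thinned shares are those given above.

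**Figure D2:**
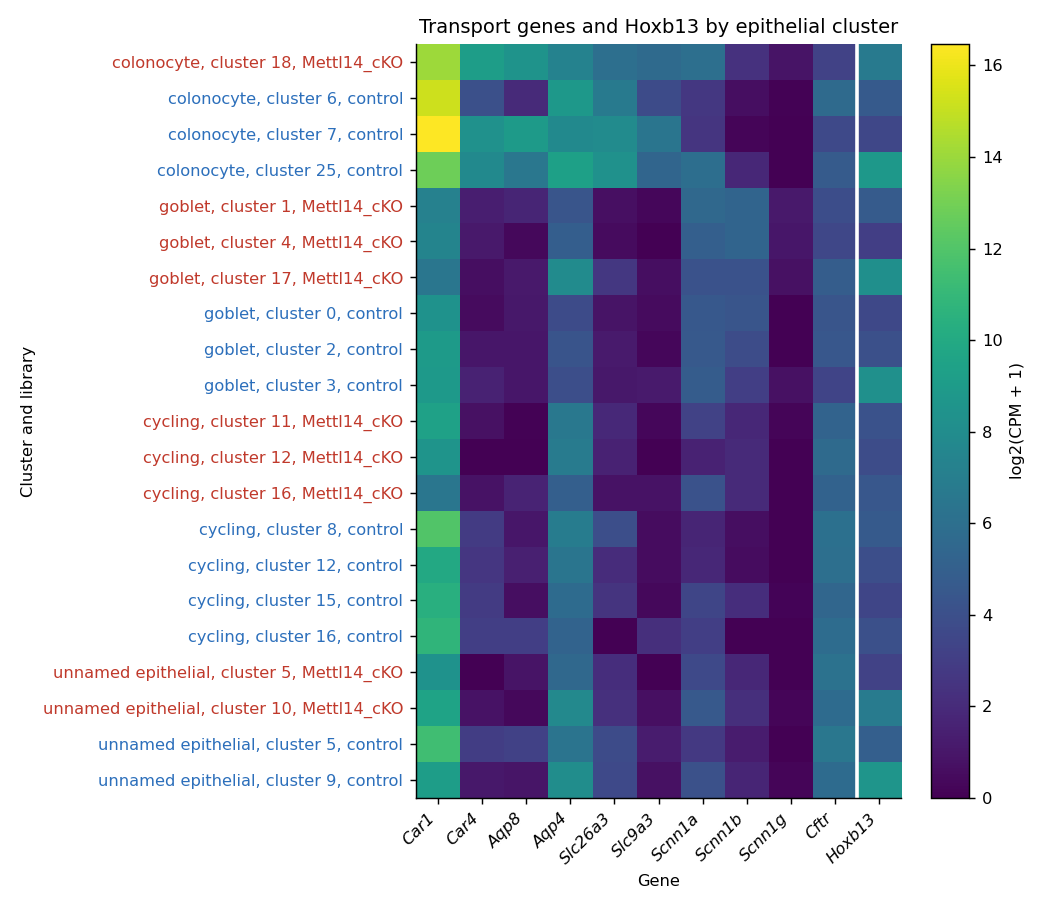
Level of the 10 genes and Hoxb13 in the colonocyte, goblet, cycling and unnamed epithelial clusters of each library as log2(CPM + 1), in colour, with Mettl14_cKO rows (red labels) above control rows (blue labels) within each class. Aqp8 and Car4 are brighter in Mettl14_cKO cluster 18 and control cluster 7 than in control cluster 6, and Scnn1a is bright in clusters 18 and 25 among colonocyte rows.

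Restricting the class to clusters with a colonocyte marker among their 10 leading genes (chosen after the data were seen) left 374 Mettl14_cKO and 947 control cells and left out cluster 6. In these surface clusters Car1 had 18528 and 82388 CPM, 4.45-fold lower (4.42 to 4.48), and Slc26a3 had 68.6 and 252 CPM, 3.68-fold lower (3.29 to 4.13). Scnn1a had 61.2 and 10.3 CPM, 5.92-fold higher (4.79 to 7.35). Of 8 genes measured these were the 2 lower and the 1 higher, where 8.22% and 15.1% of all 9959 genes were lower and higher. Car4 came to 576 and 307 CPM, a ratio of 1.87 (1.78 to 1.97), Aqp4 to 157 and 267 CPM, a ratio of 0.588 (0.543 to 0.637), and Cftr to 9.89 and 12.9 CPM, a ratio of 0.767 (0.545 to 1.06). Those 3 genes no longer passed the 2-fold line, and Scnn1b fell under the count minimum with 19 and 5 UMIs. Aqp8 (343 and 462 CPM) and Slc9a3 (57.3 and 78.5 CPM) were on the other side of equal from the whole class, with ratios of 0.741 (0.701 to 0.783) and 0.731 (0.638 to 0.835).

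The surface cells were also split by whether a cell had a Hoxb13 UMI. Such cells were 110 of 374 in the Mettl14_cKO surface clusters (29.4%) and 113 of 947 in the control (11.9%), and 28 and 20 of them had a single such UMI. Their median depths were 14096.5 and 10717 UMIs, against 7519 and 10508 UMIs in cells without one, so the split is not free of depth. These shares were not thinned, and T/NK-like cells, which should lack the gene, had 18 and 14.7 CPM of Hoxb13, so no difference in the share is read. Among cells with a Hoxb13 UMI, Car4 had 1029 CPM in the Mettl14_cKO and 237 CPM in the control library, 4.35-fold higher (3.89 to 4.87), and Aqp8 had 724 and 182 CPM, 3.97-fold higher (3.50 to 4.52). Among cells without one, Car4 had 346 and 319 CPM, a ratio of 1.09 (1.02 to 1.16), and Aqp8 had 150 and 507 CPM, 3.39-fold lower (3.09 to 3.72). The higher Car4 of the surface clusters thus lay mainly in cells with a Hoxb13 UMI, and Aqp8 had opposite directions in the 2 kinds of cell. Scnn1a had 79.9 and 47.8 CPM in cells with a Hoxb13 UMI, a ratio of 1.67 (1.25 to 2.24), and 51.7 and 4.40 CPM in cells without, 11.7-fold higher (8.43 to 16.6). Its larger ratio was in cells without one, where control cells had little of it. Car1 and Slc26a3 were lower in both kinds of cell. Car1 had 10239.8 and 23321 CPM with a Hoxb13 UMI and 22723 and 91731 CPM without, and Slc26a3 had 116 and 280.3 CPM with and 44.7 and 248 CPM without.

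**Figure D3:**
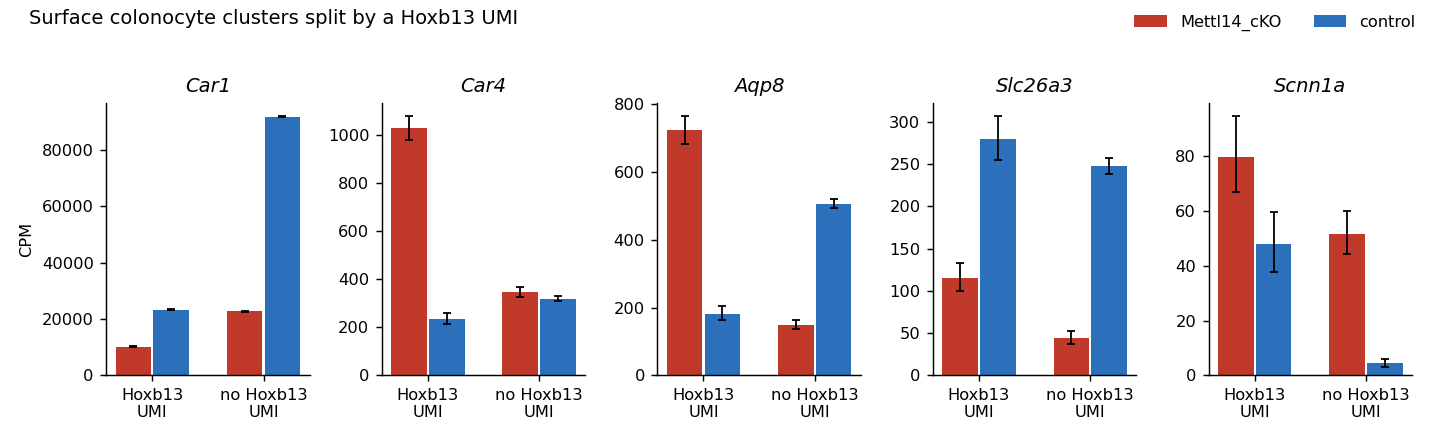
CPM of 5 of the genes in surface colonocyte clusters, in cells with and without a Hoxb13 UMI, with Mettl14_cKO bars left of control bars and 95% Poisson intervals for counting error. Car1 and Slc26a3 are lower in the Mettl14_cKO library in both kinds of cell, while Aqp8 is higher in cells with a Hoxb13 UMI (724 and 182 CPM) and lower in cells without (150 and 507 CPM).

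Across the 26 epithelial units formed by a cluster in a library, Car1, Car4, Aqp8, Slc26a3 and Slc9a3 were positively correlated with each other. Pearson's r of log2(CPM + 1) was 0.92 for Car4 and Slc9a3, 0.91 for Car4 and Aqp8 and 0.91 for Aqp8 and Slc9a3. Car1 had an r of 0.82 with Car4, 0.83 with Slc26a3, 0.83 with Slc9a3 and 0.70 with Aqp8. Slc26a3 had 0.82 with Slc9a3, 0.81 with Car4, 0.80 with Aqp4 and 0.70 with Aqp8, while Scnn1b and Cftr had -0.60. By rank the order differed, with Spearman's rho at 0.85 for Car1 and Car4, 0.81 for Car4 and Slc9a3 and 0.71 for Car4 and Aqp8. These are descriptions, since clusters of a library share its free RNA and its depth. The most alike genes were sought over 15 units of class and library, immune classes included, with at least 500 epithelial UMIs per gene. For Aqp8 these were Slc9a3 (r = 0.99) and Sectm1b (0.95). Aqp8 and Slc9a3 were high in colonocyte-like and low in goblet-like and cycling-like cells, so their r rests on few units. Slc9a3 was most like Aqp8 and Cyp2c55 (0.96), Car4 like Prss30 and Tmigd1 (both 0.95), and Slc26a3 like Ces2e (0.97) and Sult1b1 (0.94). Car1 was most like Ppfia3 (0.97) and Prap1 (0.96), Aqp4 like Hint1 and Maoa (both 0.92), and Cftr like Usp43 and Slc4a4 (both 0.96). Fam3b was among the genes most like Scnn1a (0.89), and Scnn1b was most like Qsox1 (0.94) and Mia3 (0.92). Scnn1g, with 57 epithelial UMIs, was too low for this.

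The promoters of Aqp8, Car4 and Slc9a3, the genes with the highest values of Pearson's r, and that of Slc26a3, which was lower in Mettl14_cKO colonocyte-like cells where the others were not, are shown to set their sequences side by side. They are from RefSeq on GRCm38.p6, plus strand, each 250 bases before to 50 after the start, and 7 of the 10 genes were matched in that table. Capitals mark matches on either strand to TTTATNG (a CDX-type motif, CDX1 and CDX2 being the homeobox factors of gut identity), AGGTCA (a nuclear receptor half-site) or TATAAA (the TATA box). The letters, with CACACCC (a KLF-type motif), were chosen after the sequences were seen. Aqp8 lies at chr7:123462044-123462343, Car4 at chr11:84957504-84957803, Slc9a3 at chr13:74121163-74121462 and Slc26a3 at chr12:31437969-31438268.
Aqp8: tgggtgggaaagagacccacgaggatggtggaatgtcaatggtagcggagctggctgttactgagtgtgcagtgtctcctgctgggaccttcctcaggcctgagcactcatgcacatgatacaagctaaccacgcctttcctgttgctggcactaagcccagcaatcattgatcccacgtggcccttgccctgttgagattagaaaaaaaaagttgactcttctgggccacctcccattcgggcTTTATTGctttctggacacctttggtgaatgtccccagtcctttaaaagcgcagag
Car4: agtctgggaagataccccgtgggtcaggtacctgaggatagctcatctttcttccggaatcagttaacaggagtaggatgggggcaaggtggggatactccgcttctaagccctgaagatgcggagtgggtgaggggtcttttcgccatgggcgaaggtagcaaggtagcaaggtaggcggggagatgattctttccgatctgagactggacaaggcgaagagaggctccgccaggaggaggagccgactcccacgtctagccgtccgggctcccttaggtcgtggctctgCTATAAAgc
Slc9a3: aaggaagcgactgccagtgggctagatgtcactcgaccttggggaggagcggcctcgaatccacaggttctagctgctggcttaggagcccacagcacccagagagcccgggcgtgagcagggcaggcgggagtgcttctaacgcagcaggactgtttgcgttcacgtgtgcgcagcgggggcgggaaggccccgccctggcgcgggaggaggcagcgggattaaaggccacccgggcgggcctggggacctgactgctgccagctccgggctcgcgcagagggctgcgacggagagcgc
Slc26a3: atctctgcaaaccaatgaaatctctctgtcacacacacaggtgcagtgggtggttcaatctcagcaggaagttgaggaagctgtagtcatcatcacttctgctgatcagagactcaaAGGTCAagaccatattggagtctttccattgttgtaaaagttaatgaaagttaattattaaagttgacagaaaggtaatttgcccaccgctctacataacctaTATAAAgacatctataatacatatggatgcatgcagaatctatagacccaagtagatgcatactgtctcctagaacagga
Aqp8 had a CDX-type match 6 bases before its start. Slc26a3 had a half-site 133 bases and a TATA box 30 bases before the RefSeq start used here. That window lies inside the gene as placed by GENCODE M21 (31390871 to 31473917) and does not hold the gene start given there. The windows of Aqp8, Car4 and Slc9a3 do hold theirs, so the Slc26a3 window is not of the same kind. Car4 had overlapping matches to the TATA box and the CDX-type motif 42 and 41 bases after its start, and Slc9a3 had none of the 4. Of 32851 promoters in the table, 10.9% held the CDX-type motif, 16.3% the half-site, 7.95% the KLF-type motif and 13.6% the TATA box. No motif was found in all 4 windows.

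In goblet-like cells, the mucus-secreting class, Scnn1b and Aqp4 were the genes past the line on the higher side. Of 9 genes measured 1 was at least 2-fold lower (Car1) and 2 were higher (Aqp4 and Scnn1b), where 4.87% and 6.01% of all 12965 genes were lower and higher. These cells lay mostly in clusters 1, 4 and 17 in the Mettl14_cKO library and in 0, 2 and 3 in the control. Scnn1b, the beta subunit, had 32.2 CPM in Mettl14_cKO and 14.4 CPM in control goblet-like cells, from 1304 and 563 UMIs, 2.23-fold higher (2.02 to 2.47). Its log2 ratio was 1.11 with 1 CPM added and 0.79, under the line, with 10 CPM added. Scnn1a had 28.4 and 23.4 CPM, a ratio of 1.21 (1.11 to 1.33). Scnn1g had 37 and 7 UMIs, a ratio of 5.09 (2.24 to 13.5), but at 0.913 and 0.179 CPM its log2 ratio with 1 CPM added was 0.70. Scnn1b was higher in goblet-like cells than in colonocyte-like and cycling-like cells of each library. Over the whole class all 3 subunits were on the higher side in Mettl14_cKO goblet-like cells. Among those with a Hoxb13 UMI, however, Scnn1a had 19.1 and 23.8 CPM, a ratio of 0.802 (0.673 to 0.956). By cluster, Scnn1b had 38.2 CPM in cluster 1, 38.6 in cluster 4 and 17.1 in cluster 17 of the Mettl14_cKO library, against 19.0, 13.5 and 7.28 CPM in clusters 0, 2 and 3 of the control. In both libraries the Hoxb13-high cluster, 17 or 3, was the lowest. T/NK-like cells had no Scnn1g UMI, which allows up to 3.00 and 4.0 CPM. At 1700 UMIs per cell Scnn1b was seen in 5.72% and 2.60% of goblet-like cells, and in 0 of 249 and 0 of 170 T/NK-like cells, which allows up to 1.2% and 1.76%.

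Aqp4 in goblet-like cells depended on which clusters were in the class. It had 81.8 CPM in Mettl14_cKO and 15.6 CPM in control goblet-like cells, 5.24-fold higher (4.80 to 5.72). T/NK-like cells had 24.0 and 66.7 CPM, so by CPM the control goblet-like level was under the background. The thinned shares were 6.88% and 2.45% in goblet-like and 2.01% and 1.76% in T/NK-like cells. The control shares did not differ beyond counting error, so the control level is not told from the background. By cluster Aqp4 had 248 CPM in the Hoxb13-high cluster 17 of the Mettl14_cKO library (Hoxb13 at 289 CPM), against 19.3 and 29.2 CPM in clusters 1 and 4. The control clusters 0, 2 and 3 had 12.8, 18.5 and 14.8 CPM, although cluster 3 was as high in Hoxb13 (300.5 CPM). A control cluster that met no naming rule, cluster 9, had 264 CPM of Aqp4 and 387 of Hoxb13. Under 6 other settings of the filter or the clustering the log2 ratio of 2.32 became -0.67 to -0.01, so its direction is not settled. Among goblet-like cells with no Hoxb13 UMI, Aqp4 had 26.1 and 13.2 CPM, a ratio of 1.98 (1.74 to 2.25).

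The remaining genes were low in goblet-like cells. Cftr had 15.6 and 17.4 CPM, a ratio of 0.898 (0.804 to 1.0), against 2.0 and 5.33 CPM in T/NK-like cells. Car4 (1.01 and 0.973 CPM), Aqp8 (0.740 and 0.999 CPM), Slc26a3 (1.70 and 0.999 CPM) and Slc9a3 (6 and 22 UMIs) were all under the CPM of T/NK-like cells of the same library, which had 5.01 and 9.33 CPM of Car4, 5.01 and 8.0 of Aqp8, 2.0 and 12.0 of Slc26a3 and 1.0 and 4.0 of Slc9a3. These levels are read as background.

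Car1 in goblet-like cells lay near the level of cells that should lack it. It had 140 CPM in Mettl14_cKO and 410.3 CPM in control goblet-like cells, 2.93-fold lower (2.84 to 3.02). T/NK-like cells, at median depths of 1939 and 1628.5 UMIs, had 80.1 and 3097 CPM. Per cell, that was 0.204 and 6.49 UMIs of Car1 in T/NK-like cells against 2.14 and 4.64 UMIs in goblet-like cells. At 1700 UMIs per cell, 10.4% and 88.2% of T/NK-like cells had a Car1 UMI, and 10.4% and 53.0% of goblet-like cells did. The mean of the thinned cells was 0.191 and 0.933 UMIs in goblet-like and 0.124 and 3.65 UMIs in T/NK-like cells. By CPM, UMIs per cell and the thinned mean the Mettl14_cKO goblet-like level was above that of T/NK-like cells, while by its thinned share it was not. The control level was under it by each of these measures, so no difference of goblet cells in Car1 is read.

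Cycling-like cells, the dividing cells of the crypt, held Cftr in both libraries and had 3 absorptive genes past the line. Of 8 genes measured 3 were at least 2-fold lower in the Mettl14_cKO library (Car1, Car4 and Slc26a3) and 0 were higher, where 5.24% and 7.22% of all 12148 genes were lower and higher. These cells lay mostly in clusters 11 and 16 in the Mettl14_cKO library and in 8, 12 and 15 in the control. Cftr had 39.8 CPM in Mettl14_cKO and 56.0 CPM in control cycling-like cells, 1.41-fold lower (1.29 to 1.54), above both the colonocyte-like and the goblet-like level of each library. Aqp4 had 101 and 86.7 CPM, a ratio of 1.16 (1.09 to 1.23). T/NK-like cells had 24.0 and 66.7 CPM of Aqp4, and with these subtracted its log2 ratio of 0.21 became 1.88. The thinned shares of Aqp4 were 12.5% and 13.7% in cycling-like and 2.01% and 1.76% in T/NK-like cells. By share the control background was thus far under the cycling-like level, and no difference is read from the subtraction. Scnn1a had 8.26 and 5.51 CPM, a ratio of 1.5 (1.19 to 1.90), against 6.01 and 2.67 CPM in T/NK-like cells from 6 and 2 UMIs, and Scnn1b 45 UMIs in each library.

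The 3 lower genes were the absorptive ones Car1, Car4 and Slc26a3. Colonocyte markers summed to 1305 CPM in Mettl14_cKO and 3326 CPM in control cycling-like cells and goblet markers to 4518 and 17881 CPM, and their part in these values was not tested. Car1 had 576 CPM in Mettl14_cKO and 2422 CPM in control cycling-like cells, 4.21-fold lower (4.12 to 4.30). Control cluster 8 held 4057 CPM of it, and the other large control clusters, 12 and 15, held 996 and 1336 CPM. Per cell, cycling-like cells had 8.97 and 33.0 Car1 UMIs, above the T/NK-like 0.204 and 6.49, but the thinned share was 18.5% and 66.9% against 10.4% and 88.2%. The control share thus lay under that of T/NK-like cells, and no order is read from it. Car4 had 12 and 164 UMIs, or 0.679 and 6.11 CPM, 8.99-fold lower (5.01 to 17.8), and Slc26a3 had 2.94 and 8.53 CPM, 2.90-fold lower (2.14 to 3.99). T/NK-like cells had 5.01 and 9.33 CPM of Car4 and 2.0 and 12.0 CPM of Slc26a3. By CPM, Car4 lay under these levels in both libraries and Slc26a3 within counting error of them. By UMIs per cell, Car4 had 0.0106 and 0.0832 in cycling-like and 0.0127 and 0.0196 in T/NK-like cells, and Slc26a3 had 0.0459 and 0.116 in cycling-like and 0.00509 and 0.0251 in T/NK-like cells. The thinned shares of Car4 were 0.193% and 0.506% in cycling-like and 0.803% and 1.76% in T/NK-like cells, and those of Slc26a3 0.386% and 1.57% and 0.402% and 1.18%. The measures differ on whether these levels exceed the background, so no difference of cycling cells is read from them.

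**Figure D4:**
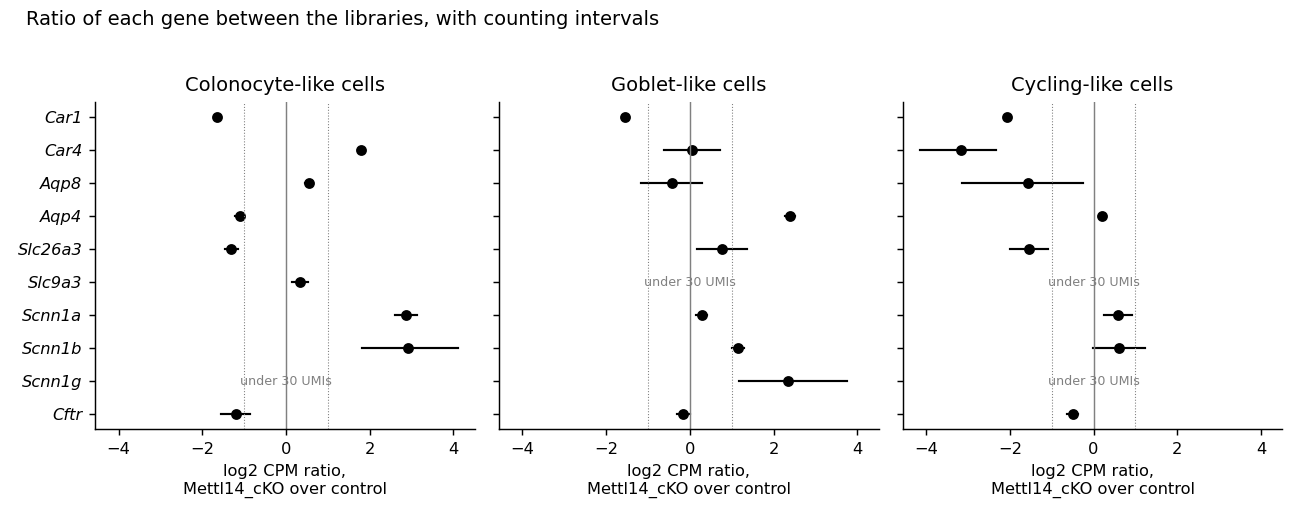
Ratio of CPM, Mettl14_cKO over control, on a log2 scale for each of the 10 genes in 3 classes, with exact 95% intervals for counting error and dotted lines at 2-fold. The ratios are plotted without the added 1 CPM of the 2-fold rule, which lowers those of scarce genes such as Scnn1g in goblet-like cells (5.09). Car4 and Scnn1a lie to the right and Car1 and Slc26a3 to the left in colonocyte-like cells.

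The other epithelial classes were set out by level only. Car1 had 622 CPM in Mettl14_cKO and 1685 CPM in control enteroendocrine-like cells, and 1722 and 2949 CPM in tuft-like cells, which were 44 and 52 in number. All 4 values are read with the free RNA in mind, since the control levels lie under those of control T/NK-like cells. Epithelial clusters that met no naming rule (1433 and 1178 cells) had 667 and 694 CPM of Car1, 187 and 255 of Aqp4, and 21.3 and 15.1 of Scnn1a. Cftr was highest in unnamed (55.3 and 54.2 CPM) and cycling-like cells (39.8 and 56.0 CPM) of both libraries, and these classes did not differ beyond counting error in the control.

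Summed over all epithelial-like cells, Car1 and Slc26a3 were lower by more than in the colonocyte-like class. Of 10 genes 4 were at least 2-fold lower in the Mettl14_cKO library (Car1, Slc26a3, Slc9a3 and Aqp8) and 1 was higher (Scnn1b), where 4.13% and 6.74% of all 14608 genes were lower and higher. Car1 had 1583 and 15124 CPM, 9.55-fold lower (9.50 to 9.61), and Slc26a3 had 6.88 and 46.2 CPM, 6.71-fold lower (6.15 to 7.34). Slc9a3 had 3.86 and 10.9 CPM, 2.82-fold lower (2.49 to 3.20), and Aqp8 had 21.3 and 53.1 CPM, 2.49-fold lower (2.36 to 2.63). Scnn1b had 17.6 and 6.13 CPM, 2.86-fold higher (2.61 to 3.15), and Scnn1a 23.9 and 13.7 CPM, a ratio of 1.74 (1.63 to 1.86). Car4 had 35.4 and 38.9 CPM, a ratio of 0.912 (0.870 to 0.957). These sums hold the different mix of classes, so fewer absorptive cells and less RNA per cell cannot be told apart in them.

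The other transport genes, 69 in 11 lists, had members past the line on both sides in colonocyte-like cells. Of 55 measured, 10 were at least 2-fold lower in the Mettl14_cKO library, 9 were higher and 36 lay between. These are 18.2% and 16.4% of the list, where 8.04% and 10.0% of all 11023 genes were lower and higher. Their median log2 ratio was -0.32, beside -0.07 over all genes. The largest ratios were those of Clca4b, a CLCA family protein, with 385 CPM in Mettl14_cKO and 2.61 CPM in control cells, 147-fold higher (116 to 191), and of Guca2b, the peptide uroguanylin that activates guanylate cyclase C, with 1024 and 71.0 CPM, 14.4-fold higher (13.7 to 15.2). Atp12a, the colonic proton-potassium pump, had 45.8 and 4.76 CPM, 9.63-fold higher (7.73 to 12.0), and the monocarboxylate carrier Slc16a3 had 10.7 and 1.34 CPM. Guca2a, the related peptide guanylin, had 999 and 1246 CPM and did not pass the line. In surface cells with a Hoxb13 UMI the values were 605 and 10.3 CPM for Clca4b, 1113 and 47.2 for Guca2b and 137 and 68.4 for Atp12a, so the first 2 were also far higher among cells with a Hoxb13 UMI and the ratio of Atp12a was smaller there.

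The 4 lowest ratios by the log2 rule, with 1 CPM added, were those of Slc4a4, Hsd11b2, Car12 and Slc16a1. Slc4a4, the basolateral sodium-bicarbonate cotransporter, had 8.10 CPM in Mettl14_cKO and 42.8 CPM in control cells, 5.29-fold lower (3.91 to 7.32). Hsd11b2, the enzyme that keeps cortisol-type steroids off the mineralocorticoid receptor, had 46.2 and 166 CPM, 3.6-fold lower (3.17 to 4.11). Car12, a membrane carbonic anhydrase, had 8.83 and 30.4 CPM, and Slc16a1, a carrier of short-chain fatty acids, 33.1 and 96.5 CPM. Of the 8 ENaC regulators 4 were lower (Hsd11b2, the mineralocorticoid receptor Nr3c2, the glucocorticoid receptor Nr3c1 and its target Tsc22d3) and 1 was higher, the channel-activating protease Prss8. Nr3c2 had 14.4 and 32.7 CPM, Nr3c1 17.7 and 51.6 CPM, Tsc22d3 16.4 and 37.3 CPM and Prss8 28.0 and 9.98 CPM.

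Of the carbonic anhydrases 1 of 6 was lower (Car12), of aquaporins 1 of 2 (Aqp11), of anion exchangers and bicarbonate transporters 1 of 4 (Slc4a4) and of short-chain fatty acid carriers 2 of 3 (Slc16a1 and Slc5a8), with 1 higher (Slc16a3). Of potassium channels 1 of 5 was higher (Kcnk1), of ion pumps and their subunits 2 of 6 (Fxyd3 and Atp12a), of the guanylin and cyclic nucleotide genes 1 of 7 (Guca2b) and of chloride channels and CLCA proteins 3 of 7 (Ano1, Clca4a and Clca4b), with 1 lower (Best2). Clca4a had 249 and 51.3 CPM and the pump regulator Fxyd3 243 and 49.3 CPM. None of 5 sodium-proton exchangers and adaptors and none of 3 cation-chloride cotransporters passed in either direction. Other abundant genes lay between, with the sodium pump subunit Atp1b1 at 676 and 599 CPM, the cytosolic enzyme Car2 at 971 and 1092 CPM, the sulfate carrier Slc26a2 at 327 and 255 CPM and the Slc9a3-binding adaptor Slc9a3r1 at 219 and 225 CPM. Of 10 measured genes that mark position along the colon 3 were higher, Hoxb13, Hoxd11 and Hoxa13, and 0 were lower, with Hoxb13 at 90.7 and 37.2 CPM. Beside each of these list counts, 8.04% of all 11023 genes were lower and 10.0% were higher. The counts are for the whole class, cluster 6 included, and some calls differed in the surface clusters alone. There Ano1 came under the line (ratio 1.85) and the potassium channel subunit Kcne3 passed it (5.39). The part of the position genes in the differences above was not tested beyond the split by Hoxb13.

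**Figure D5:**
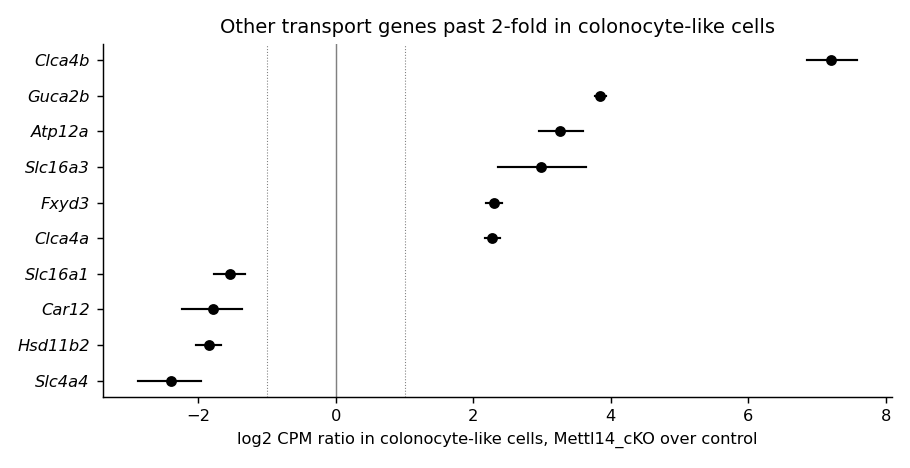
Ratio of CPM, Mettl14_cKO over control, on a log2 scale for 10 other transport genes past the 2-fold line in colonocyte-like cells, chosen by the size of their ratio or by a level of at least 200 CPM, with exact 95% intervals for counting error and dotted lines at 2-fold. Clca4b (147-fold) and Guca2b (14.4-fold) lie farthest to the right and Slc4a4 and Hsd11b2 farthest to the left.

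Where the genes lie bears on how well their counts can be told from those of others. In GENCODE M21 on GRCm38 (no source used here names the build behind the counts), Car1 is on chromosome 3 (14766216 to 14808368, minus strand) and overlaps Gm16399 on the same strand, and other genes hold 12.9% of the words of 60 bases found within 500 bases of its transcript ends. That share was 0 for the other 9. Scnn1g (121734479 to 121768475), Scnn1b (121865038 to 121918514) and Aqp8 (123462291 to 123468004) lie on the plus strand of chromosome 7, and Scnn1b overlaps Cog7 on the opposite strand. Scnn1a (125320659 to 125344943) and Cftr (18170687 to 18322768) are on chromosome 6, Car4 (84957786 to 84966044) on 11, Slc26a3 (31390871 to 31473917) on 12 and Slc9a3 (74121457 to 74169442) on 13, all on the plus strand. Cftr overlaps Gm15592 and Gm15595, Slc26a3 overlaps Gm9359, and Aqp4, on chromosome 18, overlaps AC133525.2 on the opposite strand. No source used here says whether counting used strand, so the values of overlapping genes carry that limit.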

How the data were processed

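Each library was deposited as a matrix of raw UMI counts by gene and barcode. The submitters' processing notes name Cell Ranger 3.0.0 and Seurat 3, while the file headers name Cell Ranger 3.1.0. No source used here names the genome build, the annotation or the strand setting. The label M14 was taken to mean Mettl14. Barcodes were called as cells before deposit, with no barcode under 500 UMIs. The 10 genes, the lists of other transport genes and the comparisons were chosen with earlier results of these data known.

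Barcodes with fewer than 500 detected genes or 25% or more mitochondrial UMIs were dropped, 2100 in the Mettl14_cKO and 1027 in the control library. Doublets were scored per library with Scrublet in scanpy 1.11.5, and 53 (0.744%) and 77 (0.841%) cells scoring 0.25 or more were dropped. The kept cells had medians of 6253.5 and 10037 UMIs. Both libraries were clustered jointly without integration, from log values at 10000 UMIs a cell, with 2000 variable genes, 30 principal components, 15 neighbours and a Leiden resolution of 1. The 10 genes and the other transport genes were left out of the variable genes and of the markers. A cluster took the class with at least 3 markers among its 50 leading genes, unless another class had more among its 10 leading genes. Among clusters left unnamed, those with Epcam at 50% or more of the median over named epithelial clusters counted as epithelial. The score and the naming rules were set after the data were seen.

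CPM are the summed UMIs of a gene in a class relative to the summed UMIs of all genes there. Levels have exact Poisson intervals, ratios exact conditional binomial intervals and shares exact (Clopper-Pearson) binomial intervals, at 95%. A gene was called lower or higher at 2-fold on log2 of the ratio of CPM plus 1, among genes with at least 30 UMIs in both libraries together, and the call has no replicate check. A count of 0 allows up to 3 counts. The other transport genes named are the 4 highest and 4 lowest ratios in each class and those with at least 200 CPM. Other genes named as past the 2-fold line were chosen after their values were seen. Some genes that these rules name are not reported here. Summing and calling were tested on simulated data. Clustering used leidenalg 0.10.2 on igraph 0.11.9 with scikit-learn 1.9.0. Tables and intervals were made in Python 3.11.15 with pandas 2.3.3, numpy 2.4.6 and scipy 1.17.1, matrices were held in anndata 0.12.19, and figures drawn with matplotlib 3.10.9. Alternatives changed the cell filter, doublet removal, clustering, scaling, pseudocount, depth and the correction for free RNA, each in turn.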

Additional observations from a re-analysis of the deposited data

Results flagged for a closer look

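Car4 had opposite directions in different classes, with a log2 ratio of -2.08 in cycling-like cells and 1.79 in colonocyte-like cells. The difference between the classes was not tested, and the cycling-like value rests on 12 Mettl14_cKO and 164 control UMIs, 0.679 and 6.11 CPM beside 5.01 and 9.33 CPM in T/NK-like cells. Aqp4 also did, with -1.10 in colonocyte-like and 2.32 in goblet-like cells. That difference was not tested either, and the goblet-like direction turned under other clusterings.

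Myeloid-like cells, which no comparison uses, held carbonic anhydrase UMIs in the Mettl14_cKO library. They were 436 cells, against 10 in the control, and had 304 CPM of Car1 and 35.2 CPM of Car4, from 458 and 53 UMIs. T/NK-like cells of that library had 80.1 and 5.01 CPM of the same genes. Most of it lay in cluster 21, led by the neutrophil genes S100a9 and S100a8, with 947 CPM of Car1 and 109 CPM of Car4, while cluster 19, led by Apoe and Lyz2, had 45.5 and 5.58 CPM. The source of these UMIs was not tested.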

How the results depend on the processing

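No paired analysis was possible because each genotype had 1 library. Of 532 values of single genes under other settings, 246 moved by less than counting error and 274 moved by more. The other 12 were sign changes of genes past the 2-fold line. Sign changes of genes under the line were not counted apart and are among the 246 and 274. In goblet-like cells, for example, Slc26a3 kept its sign under 6 of 14 settings and Car4 under 9 of 14. In colonocyte-like cells Car1 (-3.09 to -1.41), Slc26a3 (-2.45 to -1.02), Aqp4 (-1.35 to -0.27), Car4 (0.70 to 2.15) and Scnn1a (1.90 to 3.35) kept their direction on the log2 scale under 16 settings. Aqp8 (-0.58 to 0.82) and Slc9a3 (-0.81 to 0.64) did not under 3 of them. The count of lower genes was 2 with each library clustered alone, where Cftr turned to 0.32, and 2 lower and 1 higher in surface clusters alone. In goblet-like cells the count was 2 lower and 1 higher, and Aqp4 turned, under the strict filter (-0.63), the lenient filter (-0.67), Leiden resolution 0.5 (-0.55) and 2 (-0.57), each library alone (-0.013) and with the transport genes kept among the variable genes (-0.52). Subtracting the T/NK-like CPM gave 0 lower genes there and turned Car1 to 5.93, and subtracting T/NK-like UMIs per cell (added after the data were seen) gave 0 lower and 4 higher genes and Car1 at 7.0. In cycling-like cells subtracting the CPM gave 0 lower and 2 higher genes, with Car1 at 8.96, Car4 at 0.00 and Slc26a3 at 0.96, and Aqp4 the other higher one (1.88). Subtracting UMIs per cell there kept 3 lower and 0 higher genes, with Car1 at -1.79, Car4 at -2.50 and Slc26a3 at -1.09. In goblet-like cells the control level subtracted exceeded the class level of Car1 by CPM and by UMIs per cell. In cycling-like cells it did so by CPM for Car1, Car4 and Slc26a3, but not by UMIs per cell. The values where it did so are not read as corrected ratios. The higher count was 2 under the lenient filter and 1 at resolution 0.5 and with the transport genes kept. A pseudocount of 10 CPM gave 1 higher gene in goblet-like, 1 lower gene in cycling-like and 0 higher genes in all epithelial-like cells. These counts under other settings are given without the share of all genes. They show only how the calls of these genes shift with the setting. Beyond the subtractions, the cause was not tested. Depth limits Scnn1g and Scnn1b in colonocyte-like cells (4 and 1, and 19 and 12 UMIs) and any value near the T/NK-like level, where a difference was not detectable.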

Other observations

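Other transport genes also differed in goblet-like and cycling-like cells. In goblet-like cells 9 of 57 measured were at least 2-fold lower in the Mettl14_cKO library and 5 were higher, or 15.8% and 8.77%, where 4.87% and 6.01% of all genes were lower and higher, with a median log2 ratio of -0.12 beside -0.02 over all genes. Guca2a, the peptide guanylin, had 71.0 CPM in Mettl14_cKO and 504 CPM in control goblet-like cells, 7.10-fold lower (6.83 to 7.39), and Guca2b, uroguanylin, had 38.1 and 128 CPM, 3.36-fold lower (3.18 to 3.56). Guca2b was thus lower in goblet-like cells and higher in colonocyte-like cells (1024 and 71.0 CPM), a difference that was not tested. Clca1, a secreted mucus protein of goblet cells, had 42.6 and 217 CPM, 5.10-fold lower (4.84 to 5.37), and the potassium channel gene Kcnma1 5.40 and 18.7 CPM. Car2, the widely expressed cytosolic carbonic anhydrase, had 632 and 260.1 CPM, 2.43-fold higher (2.37 to 2.49), and Clcn2, a chloride channel, 10.3 and 3.48 CPM. Between the lines lay Fxyd3 (788 and 887 CPM), Atp1b1 (491 and 363 CPM), Car8 (329 and 346 CPM), Kcnk1 (242 and 253 CPM) and Slc12a2 (232 and 168 CPM). Free RNA reached 26.0 and 136 CPM for Guca2a and 202 and 349 CPM for Car2 in T/NK-like cells, so the control level of Car2 was under it. The others past the line were Aqp1, Aqp11, Slc9a3r2, Hsd11b2 (103 and 225 CPM) and Best2 (lower) and Slc9a2, Clca4b (4.64 and 0.563 CPM) and Slc5a8 (20.9 and 8.83 CPM) (higher).

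In cycling-like cells 7 of 54 were lower and 1 was higher, or 13.0% and 1.85%, where 5.24% and 7.22% of all genes were lower and higher, with a median log2 ratio of -0.22 beside -0.00 over all genes. Guca2a had 56.9 and 192 CPM, Hsd11b2 38.3 and 114 CPM, the cotransporter Slc12a8 9.57 and 30.7 CPM and Clca1 1.36 and 5.17 CPM, all lower. Goblet markers summed to 4518 and 17881 CPM in these cells. The part of goblet RNA and of free RNA (given above for Guca2a) in these values was not tested. Car2 (902 and 541 CPM), Guca2b (111 and 68.2 CPM) and the exchanger Slc9a2 (12.3 and 7.63 CPM) were on the higher side but under the line, as were Fxyd3 (295 and 258 CPM) and Atp1b1 (431 and 331 CPM). Clca4b had 15.4 and 1.56 CPM, 9.85-fold higher (7.09 to 14). It was also higher in colonocyte-like (385 and 2.61 CPM) and goblet-like cells (4.64 and 0.563 CPM). No T/NK-like level of Clca4b was set beside these, and the part of free RNA in the goblet-like and cycling-like levels was not tested.

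GGACT, the most frequent form of the m6A motif, occurred 0.669 (Scnn1g) to 2.39 (Car4) times per kb in the longest transcripts of the 10 genes, beside a median of 1.01 and a 90th percentile of 2.12 over 21901 genes. Car4 was the gene above that percentile. The count is a property of the sequence, and methylation was not measured here.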
